A study of Mus musculus with 22 samples.

Results

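DNA methylation was followed at 39 genes of the forkhead (FOX) family of transcription factors in mammary tissue of a mouse breast cancer model. The members were chosen by name, and a CpG position counted as theirs when it lay in the gene body or within 2 kb of a transcription start site (TSS) of the gene in RefSeq (mm10). Of the 1140639 CpG positions covered by at least 10 reads in all 22 samples, 5115 belonged to these genes, and every one of the 39 genes had at least 1. PyMT mice were F1 females heterozygous for the polyoma middle T transgene, which the MMTV promoter drives in mammary epithelium, on the FVB/N background. There were 2 PyMT mice at week 6 (hyperplasia), 3 at week 8 (adenoma/MIN, where MIN is mammary intraepithelial neoplasia), 3 at week 10 (early carcinoma) and 2 at week 12 (late carcinoma with lung metastasis). At each week 3 age-matched homozygous FVB females without the transgene served as controls. Whole glands and bulk tumors were used, so a change in the mix of cells and a change within cells cannot be told apart.

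Forkhead factors bind DNA through a winged-helix domain of common fold and are grouped by letter into subfamilies. FOXA factors open closed chromatin in endoderm and hormone-responsive epithelia, FOXC, FOXD, FOXE and FOXF factors pattern embryonic tissues, FOXO factors carry insulin and PI3K signals to genes of arrest and stress defense, and FOXM1 drives genes of mitosis. Many developmental forkhead genes sit in CpG islands that are kept free of DNA methylation and are bound by Polycomb complexes in stem cells. Methylation of a position is given as the percent of its reads called methylated, and differences are PyMT minus FVB in percentage points.

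The data were of even depth. Samples averaged 60.2 to 79.2 reads over their positions, and the forkhead positions averaged 76.8 reads over all samples against 80.6 for all shared positions. In the control glands the forkhead promoters (positions within 2 kb of a TSS) were nearly free of methylation, with a median under 10% for 33 of the 37 promoters that held at least 3 positions. The exceptions were Foxi1, Foxs1, Foxn1 and Foxi2. Gene bodies (positions over 2 kb from every TSS) were mostly methylated, with a control median over 30% in 14 of 19.

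The sequences of 7 regions are shown because they carried the largest regional differences of their genes. A region was a run of at least 3 positions with gaps of at most 100 bp, a mean difference of at least 20 points and at least 1 position with a difference of at least 25 points at any stage. Each is printed from the mm10 reference 5′ to 3′ on the strand of the gene, which is the minus strand except for Foxk1, and capitals mark the CpGs that were measured. Untranslated bases were left out, which shortened the Foxi1 and Foxj1 regions and replaced the largest Foxk1 region by the next.
Foxi1 chr11:34207817-34208023: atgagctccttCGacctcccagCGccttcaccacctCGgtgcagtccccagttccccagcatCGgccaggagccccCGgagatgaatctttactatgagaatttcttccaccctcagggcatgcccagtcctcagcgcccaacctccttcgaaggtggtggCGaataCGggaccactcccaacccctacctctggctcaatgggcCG
Foxp1 chr6:98954567-98954654: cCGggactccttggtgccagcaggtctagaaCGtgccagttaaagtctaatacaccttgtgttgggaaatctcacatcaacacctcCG
Foxn3 chr12:99285035-99285080: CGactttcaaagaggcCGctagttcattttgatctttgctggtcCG
Foxj1 chr11:116334275-116334539: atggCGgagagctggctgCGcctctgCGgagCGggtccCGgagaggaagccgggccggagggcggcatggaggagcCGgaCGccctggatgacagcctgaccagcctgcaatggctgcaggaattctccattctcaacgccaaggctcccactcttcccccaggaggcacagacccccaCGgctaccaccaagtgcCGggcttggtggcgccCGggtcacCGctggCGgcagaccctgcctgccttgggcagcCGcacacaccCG
Foxp4 chr17:47926130-47926207: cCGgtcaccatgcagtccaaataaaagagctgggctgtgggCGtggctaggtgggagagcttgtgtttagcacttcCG
Foxa3 chr7:19014938-19015045: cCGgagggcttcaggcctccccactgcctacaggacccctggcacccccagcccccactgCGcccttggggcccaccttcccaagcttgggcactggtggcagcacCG
Foxk1 chr5:142443882-142443947: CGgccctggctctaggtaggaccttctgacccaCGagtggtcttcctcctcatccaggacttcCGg
Foxi1 and Foxj1 begin at their start codons here. The Foxp1, Foxn3 and Foxk1 stretches are intronic, the Foxa3 stretch lies in the coding part of exon 2, and the Foxp4 stretch lies upstream of the gene.

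More forkhead promoters were higher than lower in PyMT. Over the 4 stages, 15 of 37 member promoters were higher in PyMT and 7 were lower, against 17.1% higher and 17.1% lower among all 16407 promoters tested (limma on the mean percent of each promoter, adjusted p under 0.05 over all promoters). The median difference was 0.0394 points over the members and -0.00815 points over all promoters. The number of members higher grew with stage, from 2 at week 6 to 9 at week 8, 14 at week 10 and 15 at week 12. The share of all promoters that was higher was 2.91%, 8.83%, 11.8% and 12.5% at the same weeks. Members that were lower numbered 3, 5, 5 and 4 at these weeks, against 965, 1410, 1769 and 1604 of all 16407 promoters. At week 6 more members were thus lower than higher, and the median difference of the 37 was -0.0802 points. The 15 promoters that passed neither way had differences between -0.142 and 1.39 points.

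**Figure D1:**
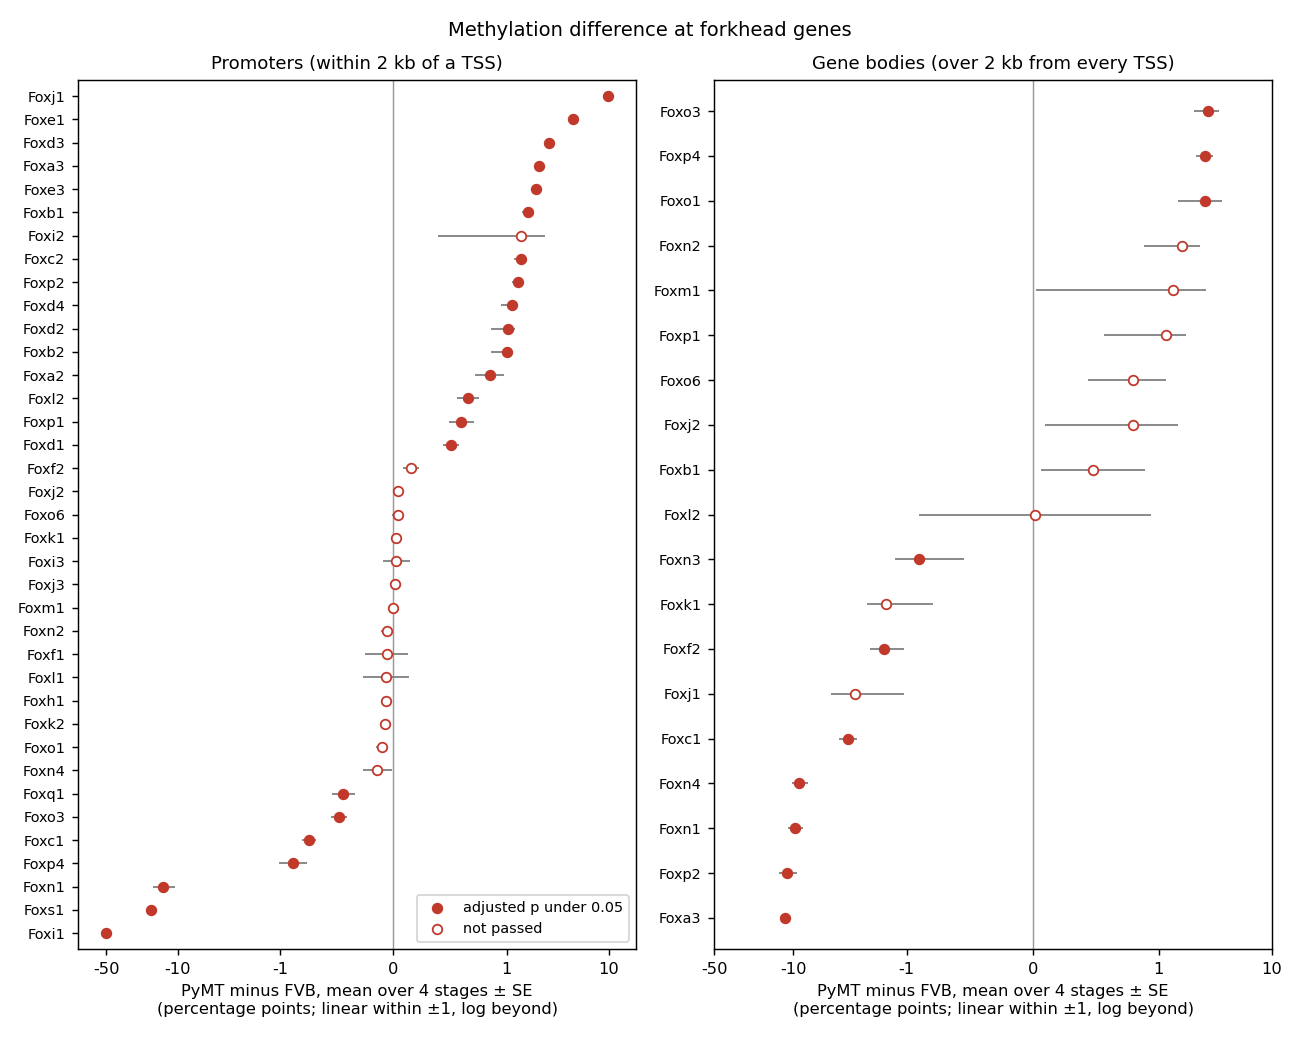
Each point is the PyMT minus FVB difference in mean methylation of one forkhead promoter (left, 37 genes) or gene body (right, 19 genes), averaged over the 4 stages, with its standard error in percentage points. The horizontal axis is linear within 1 point of 0 and logarithmic beyond. Filled points passed an adjusted p of 0.05. Promoters run from -50.7 points at Foxi1 to 9.73 at Foxj1.

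Foxj1, the master regulator of motile cilia, had the largest promoter gain. The 51 positions averaged 14.2% and 11.3% in the 2 PyMT samples of week 6, 15.9%, 17.3% and 17.1% at week 8, 21.7%, 21.3% and 16.1% at week 10, and 23.1% and 21.7% at week 12. The 12 FVB samples lay between 6.11% and 9.49%, with a median of 8.35%. All 10 PyMT samples were above all controls. The difference was 9.73 ± 0.655 points over the stages (SE, adjusted p = 1.4e-08), and it went from 4.24 points at week 6 to 8.29, 11.5 and 14.9 points at the following weeks. An exact two-sided permutation test within weeks gave p = 2.5e-05, the smallest it can give.

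The Foxj1 gain lay in one block inside the gene. In the region of 314 bp whose coding part is shown above, centered 923 bp downstream of the TSS and holding 22 positions in exon 2, the PyMT samples ranged from 26.1% to 53.4% with a median of 39.7%, and the FVB samples from 13.9% to 21.3% with a median of 19.0%. At week 12 the gain of single positions there ran from 15.04 to 52.9 points. The positions called hypermethylated at week 12 all lay between 766 and 1079 bp downstream of the TSS, 17 of 22 in coding sequence. With the promoter taken as the 2 kb upstream only, the difference over the stages was -0.207 points (adjusted p = 0.137).

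Foxe1, a factor of thyroid development, gained next most. Its 166 promoter positions averaged 4.26% and 5.33% in the PyMT samples of week 6, 5.33%, 6.56% and 7.16% at week 8, 8.56%, 7.41% and 7.87% at week 10, and 12.8% and 8.98% at week 12. The FVB samples lay between 2.52% and 3.36%. No PyMT sample fell within the control range, and the difference was 4.48 ± 0.368 points (adjusted p = 1.1e-07). Hypermethylated positions grew from 9 at week 6 to 10, 25 and 44, and 36 of those 44 were in the coding exon, up to 1731 bp downstream of the TSS.

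Foxd3, which maintains neural crest and pluripotent cells, had the smallest p-value for dependence on stage. Its 135 positions averaged 3.27% and 2.97% in the PyMT samples of week 6 and 9.02% and 7.70% in those of week 12, against 2.43% to 3.01% over the 12 controls. One hyperplasia sample lay inside the control range and every later PyMT sample lay above it. The difference went from 0.358 ± 0.352 points at week 6 (adjusted p = 0.657) to 1.76, 2.87 and 5.46 ± 0.352 points at week 12 (adjusted p = 7.44e-08). Called positions went from 1 at week 6 and 0 at week 8 to 11 and 26, and 4 of the 26 lay upstream of the TSS.

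The stage effect was tested as the change in the PyMT minus FVB difference from the mean of weeks 6 and 8 to the mean of weeks 10 and 12. It was positive for 6 member promoters and negative for 0, against 2.45% and 0.183% of all promoters. Foxj1 rose by 6.93 points (adjusted p = 0.00985), Foxe1 by 3.65 points (0.0146) and Foxd3 by 3.11 points (0.000216), all adjusted by limma over all promoters. Foxc2, which acts in lymphatic vessels and mesenchyme, rose by 2.21 points (adjusted p = 0.0077). Foxd2 rose by 1.57 points (adjusted p = 0.0232) and Foxb1, a gene of the developing hypothalamus and midbrain, by 1.79 points (adjusted p = 0.0285). On a logit scale, which measures change relative to the starting level, only Foxd3 and Foxc2 of the 6 still passed. With positions within 1 kb of a TSS, only Foxd3 of the 6 passed, beside Foxl2. An F test of any difference among the 4 stage effects passed for 3 of 37 member promoters, and for 212 of all 16407. Of the 6, Foxe1 (adjusted p = 0.0559), Foxd2 (0.0771) and Foxb1 (0.137) did not pass this F test.

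**Figure D2:**
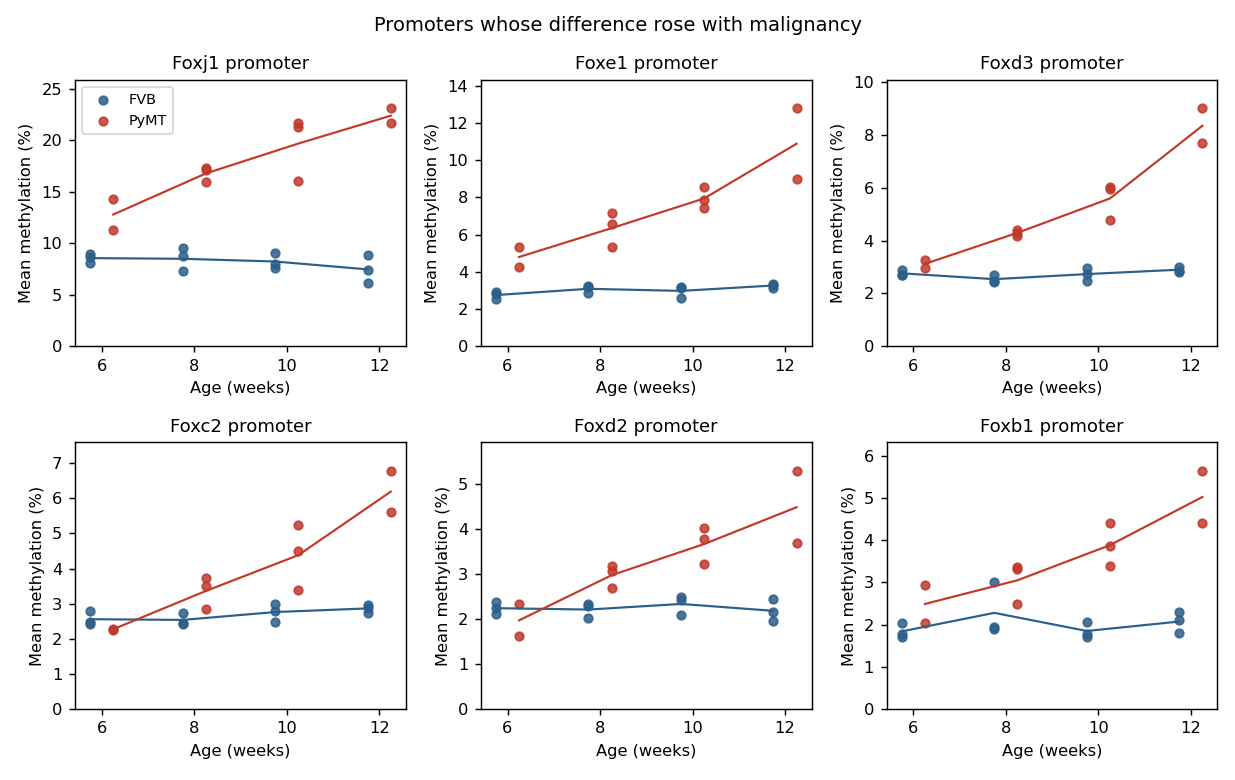
Mean methylation of the 6 promoters whose difference rose with stage, in percent, against age in weeks. Each point is 1 mouse and lines join group means, with PyMT in red and FVB in blue. The FVB points stay level while the PyMT points climb, for Foxd3 from 2.97% and 3.27% at week 6 to 7.70% and 9.02% at week 12.

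At week 6 none of the 6 rising promoters passed the limma test, with an adjusted p of 0.133 for Foxe1 and 0.657 for Foxd3. The Foxc2 promoter averaged 2.25% and 2.29% in the week 6 PyMT samples and 6.78% and 5.60% at week 12, against 2.42% to 3.00% in FVB. The hyperplasia samples were thus below the lowest control and the late carcinoma samples well above the highest. Foxd2 went from 2.32% and 1.61% to 5.28% and 3.67%, against 1.94% to 2.48% in FVB. Foxb1 went from 2.04% and 2.93% to 5.65% and 4.41%, against 1.70% to 3.01% in FVB. The call for Foxb1 was lost without replicate 1 of the PyMT mice at week 6 (adjusted p = 0.0777) or at week 12 (0.0809), or without FVB replicate 2 of week 6, 1 or 2 of week 10 or 1 of week 12 (0.0524 to 0.0579), and that for Foxd2 without replicate 2 of the week 6 PyMT mice (adjusted p = 0.0705). The Foxd2 call was also lost with means weighted by coverage (0.0736) and at a minimum of 20 reads (0.0775), and the Foxj1 call with weighted means (0.136).

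Where the called positions lay differed among the 6 promoters. All 20 Foxc2 positions called at week 12 were in coding sequence, 570 to 1816 bp downstream of the TSS, and all 15 Foxd2 positions were in exons, 1057 to 1714 bp downstream. Those of Foxd3 reached from -52 to 1532 bp and those of Foxb1 from -255 to 1692 bp. In the 2 kb upstream alone, the Foxd3 change with stage was 5.54 points (adjusted p = 0.0828). As a mean over the positions of all forkhead promoters, those 1000 to 2000 bp downstream of a TSS differed by -0.116 points at week 6. The differences were 1.04, 1.66 and 3.14 points at the later weeks. Such means over positions can rest on a few genes, and the median difference of the 37 promoters at week 12 was 0.323 points. Positions 500 to 1000 bp downstream differed by 0.604, 0.925, 1.63 and 2.16 points. The 500 bp upstream of the TSS averaged 0.574% ± 0.147 in PyMT (SD, n = 10) and 0.434% ± 0.0803 in FVB (SD, n = 12), and their difference was 0.0717 points at week 6 and 0.273 points at week 12. Farther upstream, from -1000 to -500 bp, the differences were -0.772, -0.297, -0.452 and -0.167 points, and from -2000 to -1000 bp they were -0.205, -0.377, 0.141 and 0.162 points. The first 500 bp downstream differed by -0.41, -0.322, -0.619 and -0.118 points at the 4 weeks, and without Foxi1 and Foxs1 by 0.164, 0.483, 0.571 and 0.931 points.

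**Figure D3:**
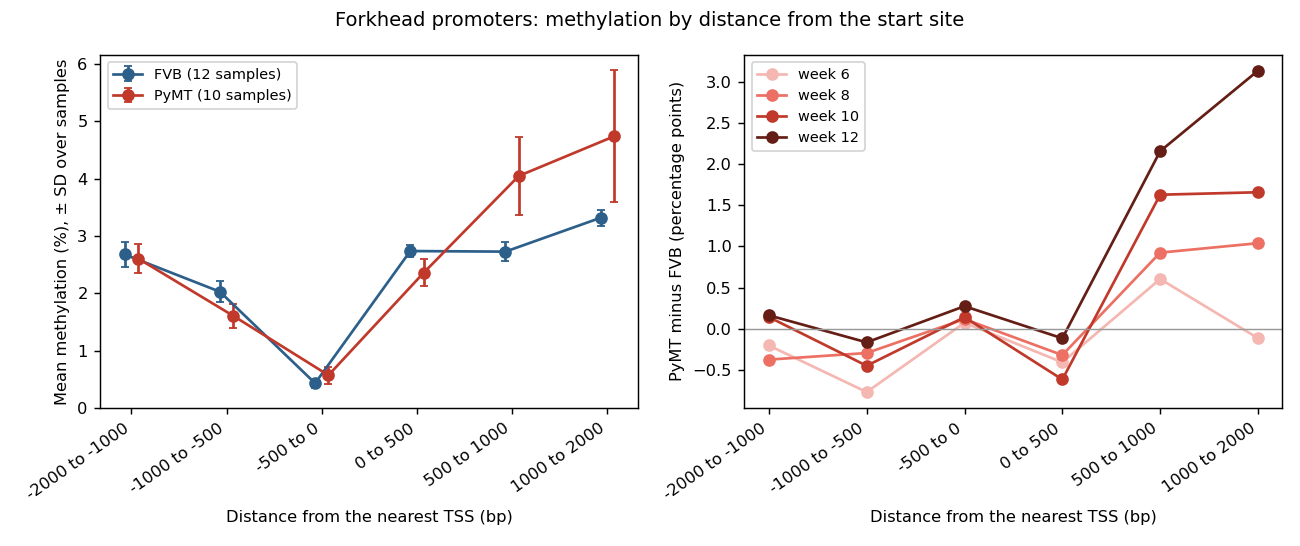
Mean methylation of forkhead promoter positions by distance from the nearest TSS in bp, negative values upstream. The left panel gives PyMT (10 samples) and FVB (12 samples) in percent with the SD over samples, and the right panel gives the difference at each week in percentage points. PyMT lies above FVB from 500 bp downstream, where the week 12 difference is 3.14 points at 1000 to 2000 bp, and below it in the first 500 bp and from -1000 to -500 bp. The sign in the first 500 bp rests on Foxi1 and Foxs1.

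A further 9 promoters were higher over the stages without a stage effect that passed. Foxa3, an endoderm factor of liver and gut, gained 2.05 ± 0.195 points in its promoter (adjusted p = 5.24e-07), and Foxe3, a lens factor, gained 1.91 ± 0.204 points (adjusted p = 1.73e-06). With the 2 kb upstream only, the Foxa3 difference was -0.00666 points (adjusted p = 0.933). Both were already higher at week 6, by 1.56 points (adjusted p = 0.0277) and 1.47 points (adjusted p = 0.0457), and they were the 2 members counted at that week. All 10 PyMT samples exceeded all controls at both genes, from 6.42% to 8.12% against 4.46% to 5.93% at Foxa3 and from 2.003% to 3.95% against 0.803% to 1.47% at Foxe3. Foxp2, Foxd4, Foxb2, Foxa2, Foxl2, Foxp1 and Foxd1 were also higher, by between 0.508 points at Foxd1 and 1.28 points at Foxp2.

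The members were also split by gene structure, with no test of the difference. Of the 13 members with 1 exon that were tested, 9 promoters were higher and 3 lower, with a median difference of 0.998 points. Of the 24 with 2 or more exons, 6 were higher and 4 lower, with a median of 0.0194 points. Among all promoters tested, 17.1% were higher and 17.1% lower. That share was not split by exon number, so these counts show no effect of gene structure. The ratio of observed to expected CpG around the TSS had medians of 0.764 and 0.818 in these classes.

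Neighboring forkhead genes had unlike values. On chromosome 8, Foxf1, Foxc2 and Foxl1 lie between positions 121084386 and 121130644, and Foxc2 gained 1.37 ± 0.201 points, whereas Foxf1 and Foxl1, which act in mesenchyme, differed by -0.0595 ± 0.191 and -0.0652 ± 0.205 points and passed no test. On chromosome 13, Foxq1 and Foxc1 were lower, at -0.442 and -0.742 points, and Foxf2 between them differed by 0.154 points without passing. On chromosome 4, the neighbors Foxd2 and Foxe3 were both higher.

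The largest promoter losses lay at genes that were methylated in the controls. The 33 promoters with a control median under 10% had less to lose. Foxi1, a factor of ionocytes and of acid-secreting cells in kidney and inner ear, lost most. Its 11 positions averaged 24.6% and 18.9% in the PyMT samples of week 6, 21.3%, 15.95% and 14.7% at week 8, 11.8%, 17.1% and 11.6% at week 10, and 11.7% and 23.5% at week 12. The 12 FVB samples ranged from 52.3% to 77.1% with a median of 69.2%. The groups were far apart at all weeks, and the difference was -50.7 ± 2.71 points (adjusted p = 1.55e-09). The 11 positions are those of the region shown above, in exon 1 and centered 156 bp downstream of the TSS, and all 11 were hypomethylated at all 4 stages.

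Foxs1, a gene of neural crest derivatives, was lower at the later stages but did not pass the stage test. Its 29 positions averaged 67.1% and 55.5% in PyMT at week 6, 61.0%, 52.0% and 50.2% at week 8, 43.0%, 48.7% and 36.6% at week 10, and 45.5% and 43.8% at week 12, against 63.6% to 73.0% in FVB. One hyperplasia sample lay within the control range. The difference over the stages was -18.4 ± 1.89 points (adjusted p = 1.15e-06), and its change with stage was -14.5 points (adjusted p = 0.0595). Without promoters of under 10 positions in the fit, or with moderation by trend and robust weights, this change passed and was the 1 falling member. In a region of the coding exon, 21 positions went from a difference of -12.2 points at week 6 to -39.3 points at week 10.

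Foxn1, the factor of thymic epithelium and hair follicles, had 4 promoter positions, at 33.4% to 57.4% in PyMT and 41.0% to 71.0% in FVB. The samples overlapped, and the difference was -14.1 ± 3.48 points (adjusted p = 0.00419). The other lower promoters were nearly unmethylated on average in both groups, with differences of -0.888 points at Foxp4, -0.742 at Foxc1, -0.479 at Foxo3 and -0.442 at Foxq1. Of the 141 Foxp4 positions, 4 were hypomethylated at all stages. They formed 1 region upstream of the gene, with a median of 18.1% in PyMT and 46.7% in FVB. Foxc1, a factor of eye and mesenchyme development, had PyMT samples at 0.232% to 0.595% and FVB samples at 0.934% to 1.35%, without overlap. Foxi1, Foxs1 and Foxn1 had CpG ratios of 0.292, 0.394 and 0.18 around the TSS, and they were 3 of the 4 lowest among the tested members, with Foxh1 at 0.293.

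**Figure D4:**
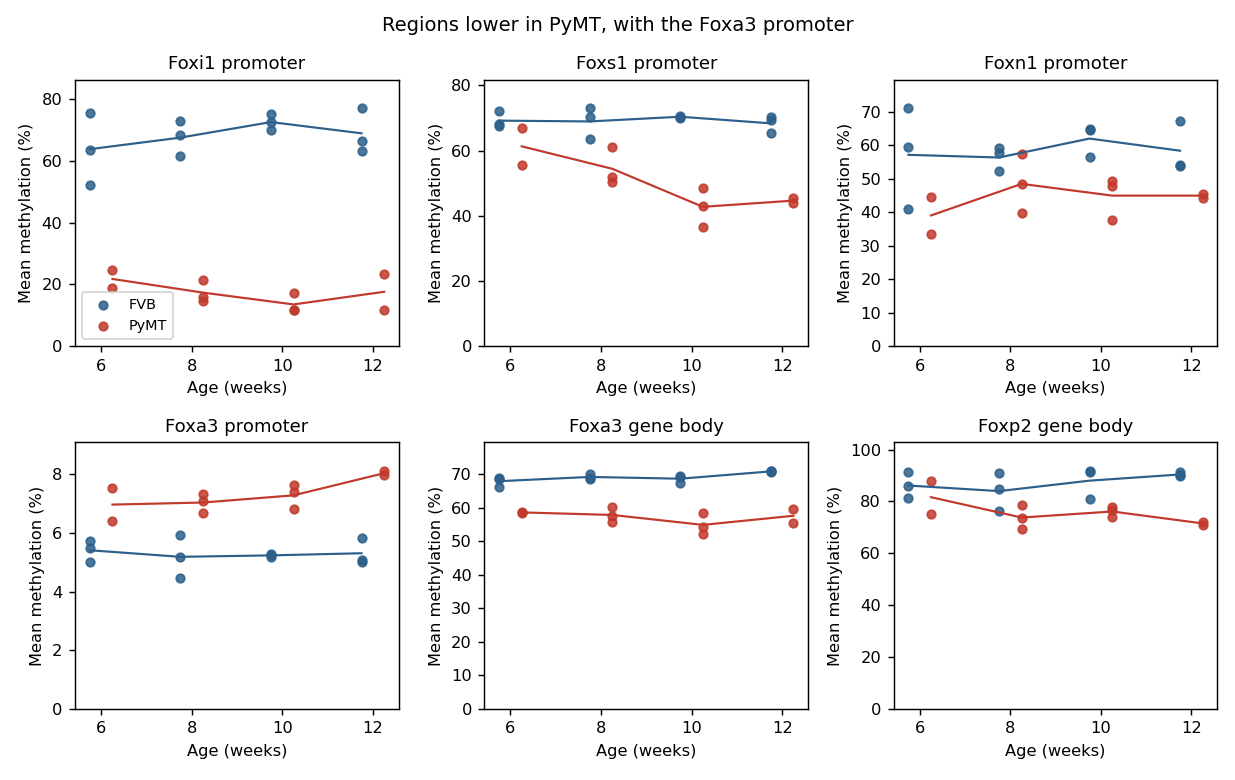
Mean methylation in percent against age in weeks for promoters and gene bodies that were lower in PyMT, with the Foxa3 promoter, which was higher, beside the Foxa3 gene body. Each point is 1 mouse and lines join group means. At Foxi1 the PyMT points lie between 11.6% and 24.6% and the FVB points between 52.3% and 77.1%.

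Member gene bodies were called in shares near those of all genes. Of 19 bodies tested, 3 were higher and 7 lower, against 19.8% and 46.3% of all 11438 gene bodies, and the median difference was 0.0158 points against -1.71 points over all. No member body passed the stage test, at 0 rising and 0 falling against 0.498% and 0.962% of all bodies, and the 9 bodies that passed in neither direction differed by -2.86 to 1.6 points.

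Foxa3 had the largest body difference and moved opposite to its promoter. Its 33 body positions averaged 52.1% to 60.3% in PyMT and 66.1% to 70.9% in FVB without overlap, and the difference was -11.9 ± 0.792 points (adjusted p = 1.3e-09). A region of exon 2 fell by 24.1 points at week 6 and by 19.6 points at week 12, whereas a region of intron 1, centered 559 bp downstream of the TSS, rose by 14.2 points at week 6 and by 21.8 points at week 12. In that intronic region, PyMT samples lay between 49.7% and 64.4% and FVB samples between 37.2% and 47.6%.

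Other bodies that were lower belonged to the FOXP, FOXN, FOXC and FOXF groups. Foxp2, a repressor known from speech and lung development, fell by 11.4 ± 2.07 points over 4 positions (adjusted p = 0.000126). Foxn1 fell by 9.75 ± 1.5 points (adjusted p = 2.18e-05) and Foxn4, a factor of retinal and spinal progenitors, by 8.9 ± 1.43 points (adjusted p = 3.46e-05). At both of these genes all 10 PyMT samples lay below all controls of their week. Foxc1 fell by 3.33 points and Foxf2 by 1.58 points from control medians of 4.35% and 2.67%. Foxn3 fell by 0.906 points (adjusted p = 0.0366), a call that was lost on leaving out any of 13 single samples (adjusted p of 0.0507 to 0.08). Foxo3, Foxp4 and Foxo1 were higher by 2.71, 2.57 and 2.55 points, and the Foxo1 call (adjusted p = 0.0452) was lost on leaving out any of 14 single samples (0.0505 to 0.092). With means weighted by coverage, the Foxo1 difference was 0.44 points (adjusted p = 0.876).

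The mean over a body hid opposite changes in the long members. Foxp1, a repressor in lymphocyte and lung development, did not pass as a body, with a difference of 1.16 ± 0.587 points (adjusted p = 0.0945), yet it held 9 of the 24 regions found in 8 forkhead genes. The strongest lay in intron 12 of 19. There the PyMT samples averaged 13.9% to 28.3% with a median of 18.0%, and the FVB samples 53.6% to 82.6% with a median of 75.0%. Methylation fell by 43.3 points at week 6 and by 59.1 points at week 12. About 1 kb away, in the same intron, another region was higher by 24.3, 3.71, 31.45 and 11.6 points at weeks 6, 8, 10 and 12. That region was called at weeks 6 and 10 only. In intron 1, a region centered 35286 bp downstream of the nearest TSS was at 10.3% to 42.2% in the FVB samples and 41.5% to 62.1% in the PyMT samples, and its difference was 20.7 points at week 6 and 43.8 points at week 12.

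Foxn3, a repressor linked to cell cycle checkpoints, had 5 regions. The stretch of intron 4 shown above fell by 20.6 points at week 6 and by 51.2 points at week 12, where the PyMT samples were at 3.22% and 3.37% and the controls at 66.2%, 44.1% and 45.7%. The region next to it fell by 21.3 points at week 6 and fell by 28.6 points at week 12. A region of intron 1 was higher by 19.2 points at week 6, 36.2 at week 10 and 23.0 at week 12, with PyMT samples at 47.2% to 75.3% against 22.3% to 35.9%.

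**Figure D5:**
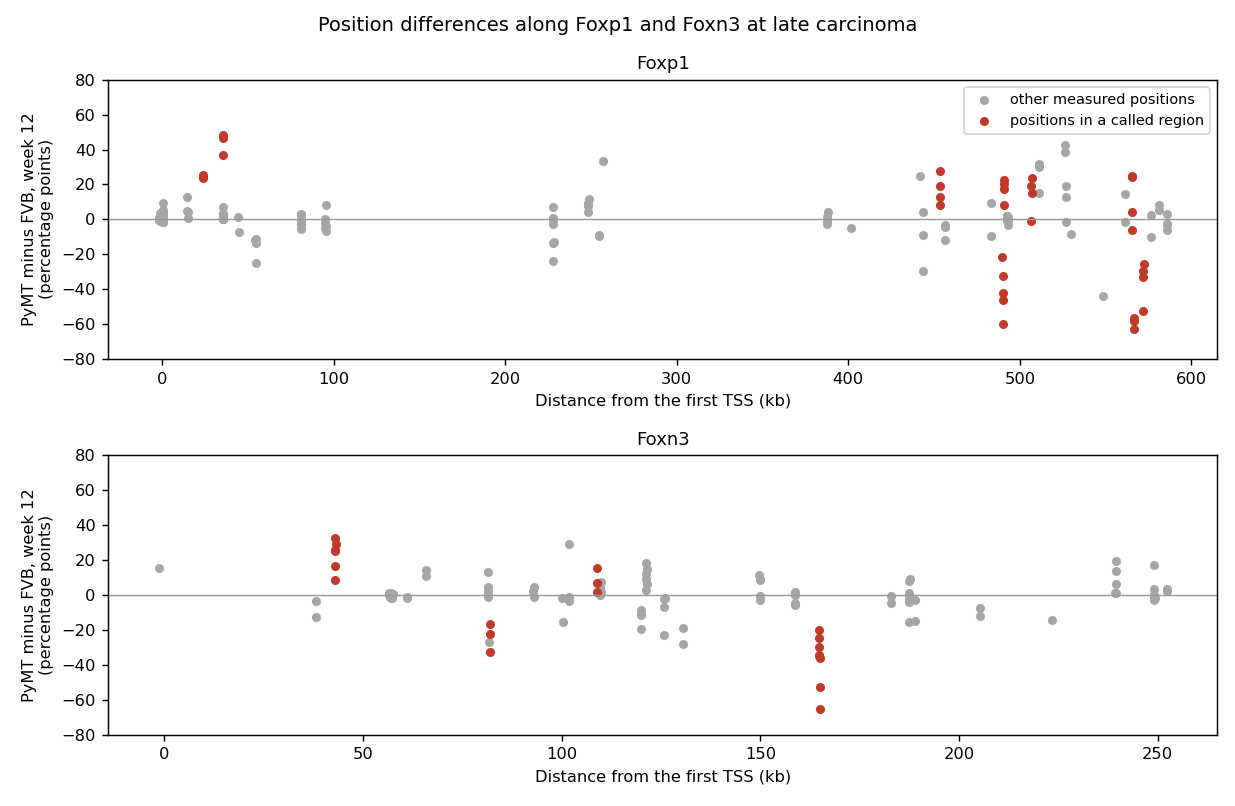
PyMT minus FVB difference at late carcinoma in percentage points for each measured CpG position along Foxp1 (top) and Foxn3 (bottom), against distance from the first TSS in kb. Red points lie in a region called at any stage. Gains and losses alternate along both genes, with the lowest points at -62.6 in intron 12 of Foxp1 and -65.0 in intron 4 of Foxn3.

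Foxk1 and Foxp4 also held regions of both directions. Foxk1, a regulator of muscle progenitors and metabolism, gained 23.1 points at week 6 and 35.1 points at week 12 over 6 positions of its last exon, where PyMT samples lay between 71.6% and 79.9% and FVB samples between 28.8% and 62.9%. An intron 2 region of the same gene fell by 22.4 points at week 12. Foxp4 had differences of -25.3 to -31.9 points over the weeks in a region upstream of its gene, centered at -1536 bp from the TSS, and gained 31.3 points at week 12 in intron 2. Of the 24 regions, 12 were higher and 12 lower on average, 10 were found at all 4 stages, and 18 were intronic.

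By stage, 6 regions were higher and 8 lower at week 6, 6 and 10 at week 8, 9 and 11 at week 10, and 7 and 10 at week 12. Of all runs of at least 3 positions, 1.56% were higher and 5.46% lower at week 6, 2.0% and 6.12% at week 8, 3.02% and 7.97% at week 10, and 3.3% and 9.21% at week 12. The runs in forkhead genes were not counted, so the counts of forkhead regions cannot be set against these shares. These regions were chosen on the same differences, so their values are a description.

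Single positions were also tested. A differentially methylated cytosine (DMC) had to differ by 10 points or more with a q-value under 0.01 in a logistic test, whose units are reads and not mice. Of the 5115 member positions, 91 were hypermethylated at week 6 (1.78%, against 2.62% of all positions), 104 at week 8 (2.03% against 3.2%), 180 at week 10 (3.52% against 4.39%) and 248 at week 12 (4.85% against 4.44%). Hypomethylated positions numbered 104 (2.03% against 6.01%), 121 (2.37% against 7.1%), 133 (2.6% against 8.42%) and 120 (2.35% against 8.53%). The median difference was 0 at each stage for members and for all positions. With a correction for spread between mice, the hypermethylated counts were 32 (0.626%, against 0.883% of all positions), 42 (0.821% against 1.22%), 99 (1.94% against 2.39%) and 137 (2.68% against 2.53%).

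Counts of DMCs were also split by the level in the controls, which enters the difference too, so that these are a description. The largest number of calls fell at the 301 member positions between 20% and 80% in FVB. There 49 were hypermethylated at week 6 (16.3%, against 12.0% of all positions at that level) and 67 hypomethylated (22.3% against 26.0%). The counts at week 12 were 76 (25.2% against 17.6%) and 80 (26.6% against 31.6%). At the 4240 positions under 5%, 16 were hypermethylated and 0 hypomethylated at week 6 (0.377% hypermethylated, against 0.246%), and 89 and 0 at week 12 (2.1%, against 7921 of 709988 positions in all). At the 261 positions between 5% and 20%, the counts were 11 (4.21% against 8.69%) and 17 (6.51% against 7.25%) at week 6. They were 70 (26.8% against 20.1%) and 5 (1.92% against 6.67%) at week 12. At the 313 positions of 80% and above, the counts were 15 (4.79% against 1.84%) and 20 (6.39% against 9.97%) at week 6. They were 13 (4.15% against 1.9%) and 35 (11.2% against 19.0%) at week 12. No difference between these shares was tested. Positions near 0 can only rise and those near 100% can only fall.

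FOXO and FOXM1, the members with the best known links to growth signals, had small promoter differences. The promoters of Foxo1, Foxo6 and Foxm1 differed by -0.101 ± 0.0484, 0.0394 ± 0.0505 and -0.00109 ± 0.0383 points, and none passed. Foxo3 was lower by 0.479 ± 0.0709 points (adjusted p = 4.91e-05), with PyMT samples at 0.16% to 0.523% and FVB samples at 0.516% to 1.2%. Foxm1 passed in neither region class.

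Genes that act with them were described from lists. Of 30 genes of the insulin, PI3K and FOXO axis, 27 promoters were tested, and 3 were higher and 8 lower, with a median of -0.0953 points. Among all promoters tested, 17.1% were higher and 17.1% lower. Akt2, a kinase that inactivates FOXO factors, was higher by 8.62 ± 0.814 points in its promoter (adjusted p = 4.75e-07) and by 18.6 ± 1.52 points in its body (adjusted p = 1.45e-08). Irs2, an insulin receptor adaptor and FOXO target, differed by -0.578 points in its promoter and by -18.7 ± 2.04 points in its body (adjusted p = 4.49e-07). Bcl2l11, the apoptotic FOXO target, differed by -0.151 points and by -19.0 ± 1.4 points in the body (adjusted p = 4.17e-09), and Trim63, a muscle ubiquitin ligase and FOXO target, by -13.4 ± 2.29 points in its promoter (adjusted p = 0.000199). Of the 21 bodies of this list tested, 3 were higher and 8 lower, against 19.8% and 46.3% of all gene bodies. The genes named here are single members of the list and do not stand for it. Of 16 FOXM1 targets and partners, 15 promoters were tested, and 0 were higher and 2 lower, Mybl2 at -0.653 points and Plk1 at -0.714 points, both genes of mitotic entry.

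Other families of developmental factors are given for comparison. Of the Hox promoters 17 of 39 were higher and 9 lower, of the Sox promoters 6 of 18 and 4, and of the Pax promoters 6 of 8 and 0. Their medians at week 12 were 1.02, 0.268 and 1.4 points, and that of the forkhead promoters 0.323 points. Among all promoters tested, 17.1% were higher and 17.1% lower. The stage test passed upward for 5 Hox, 2 Sox and 1 Pax promoters, against 2.45% of all promoters. No difference between families was tested.

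The mean promoter methylation of cell type markers separated the groups for luminal and adipocyte markers and overlapped for the others. All 10 promoters of luminal epithelial markers were lower in PyMT, and their mean was 3.51% to 6.68% in the PyMT samples and 11.9% to 17.3% in the FVB samples. It was 5.29%, 5.29%, 4.15% and 5.1% in PyMT at weeks 6, 8, 10 and 12, and 0 of the 10 passed the stage test. The median difference of the 10 was -2.33 points, and of 7 luminal gene bodies tested 5 were lower and 2 higher. Of 4 basal or myoepithelial promoters, 3 were lower and 0 higher. The mean of 6 adipocyte promoters was 31.5% to 37.2% in PyMT and 37.4% to 42.7% in FVB, with 2 higher and 2 lower. It went from 36.1% at week 6 to 32.7% at week 12 in PyMT. The median difference of these 6 promoters was 0.284 points. The mean of 5 fibroblast promoters was 5.56%, 5.32%, 7.25% and 7.93% in PyMT over the weeks and 5.2% to 5.9% in FVB, with 2 higher. Of 4 leukocyte promoters 2 were higher and 1 lower, and of 4 endothelial promoters 1 and 2. The leukocyte mean was 30.6% to 40.9% in PyMT and 33.8% to 37.7% in FVB, and the endothelial mean 27.2% to 31.4% and 26.6% to 32.6%. Among all promoters tested, 17.1% were higher and 17.1% lower, and among all gene bodies 19.8% and 46.3%. The part of cell mix in the forkhead differences was not tested.

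The remaining members were covered but passed no promoter test. Foxk2, Foxj3, Foxn2, Foxj2, Foxk1 and Foxh1 promoters had control medians of 0.105% to 0.202%, and Foxi3, Foxf2 and Foxn4 had medians of 0.984% to 1.79%. Foxi2 differed by 1.39 ± 0.993 points (adjusted p = 0.353) with overlapping samples. Foxn3 had 1 promoter position. Foxr1 had no promoter position and 1 in its body, which was named after its values were seen. This position, in a coding exon, was at 9.68% to 50.0% in PyMT and 45.2% to 81.2% in FVB, and fell by 35.02 points at week 6 and by 35.9 points at week 12.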

How the data were processed

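ERRBS (enhanced reduced representation bisulfite sequencing) enriches CpG-rich DNA with a restriction enzyme and reads methylation after bisulfite conversion. Alignment was to mm10 with Bismark, whose version is not given in the sources used here. For each of 22 mice the authors deposited raw read counts (coverage) per CpG position, strands apart and without normalization, and the percent of reads read as C or T. Positions under 10 reads were absent. Per the study's methods, each time point began with 3 mice of either strain, of which 2 in all were removed as outliers. Methylated and unmethylated reads were recovered here as coverage times percent, rounded, and fell short of the coverage in 0.9994% of values. Shallow positions have coarse percents, and intervals over reads would cover counting error only.

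Promoters and bodies came from 45756 curated RefSeq transcripts of 26180 genes. The mean percent of each region with at least 3 positions was fitted in limma 3.58.1 (R 4.3.3) with 8 groups of strain and week, with p-values adjusted by Benjamini-Hochberg over all genes of the class. Two-sided exact permutation tests used 40000 arrangements within weeks. DMCs came from a logistic likelihood ratio test on pooled reads. The limma and position tests were checked on simulated data. The reads simulated for the position test had no spread between mice, so that check cannot show how often such spread gives false calls. Python 3.11.15, NumPy 2.4.6, SciPy 1.17.1 and pandas 2.3.3 were used.

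Values are given in full for members that passed over the 4 stages (the 10 largest of each region class), held a region, or passed a stage test. Other members and list genes named with values were chosen after their values were seen. The members and lists were chosen with earlier results of these data known. Sequences are from the RefSeq mm10 assembly. The sequence of 1 further region is not reported here. Alternatives changed the minimum coverage, strand merging, q-values, thresholds, overdispersion, weights, scale, transcripts, promoter window and replicate block, or left out single samples.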

Additional observations from a re-analysis of the deposited data

Results flagged for a closer look

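For 6 forkhead promoters the PyMT minus FVB difference was not the same at the premalignant (weeks 6 and 8) and the malignant (weeks 10 and 12) stages. This was tested by the interaction term of the limma fit, adjusted over all promoters. Of the 6, only Foxd3 and Foxc2 also passed on the logit scale, and only Foxd3 within 1 kb of a TSS. The change was 6.93 points for Foxj1, 3.65 for Foxe1, 3.11 for Foxd3, 2.21 for Foxc2, 1.79 for Foxb1 and 1.57 for Foxd2. Groups of 2 or 3 mice were not tested for outlying samples.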

How the results depend on the processing

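Of the counts that answer a comparison, 169 values under other settings stayed within 1.5 times the main count and 31 did not. With a difference of at least 25 points, hypermethylated and hypomethylated positions numbered 27 and 46 at week 6, 31 and 54 at week 8, 54 and 73 at week 10, and 66 and 79 at week 12. With the overdispersion correction they were 32 and 40, 42 and 56, 99 at week 10 (hypermethylated), and 137 and 79 at week 12. Shares of all positions are not given for the 25-point setting or for hypomethylated positions with the correction. These counts show only how the results moved with the setting. At week 6, 10 regions were higher with a mean of at least 15 points, and 3 were higher and 5 lower at a minimum of 20 reads. With the 2 kb upstream only, 6 promoters were higher over the stages, 1 rose with stage, and 0, 2, 4 and 4 were higher at weeks 6, 8, 10 and 12. Within 1 kb, 4 were lower, 2 rose and 1 was higher at week 6. On the logit scale 2 rose. With at least 10 positions 1 fell, as did 1 with trend and robust moderation.

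Reversed with the 2 kb upstream only were the differences of Foxa3 (-0.00666), Foxc2 (-0.104) and Foxj1 (-0.207) and the changes with stage of Foxb1 (-0.0148) and Foxj1 (-0.0839). This window leaves out the positions downstream of the TSS. Without Foxi1 and Foxs1, a choice made after seeing the data, the difference in the first 500 bp downstream also changed sign, to 0.164, 0.483, 0.571 and 0.931 points at the 4 weeks. Among single named values, 25 lost their call under other settings and 34 on leaving out a sample.

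Leaving out single samples gave 52 to 107 hypermethylated positions, 2 to 6 higher and 5 to 10 lower regions, and 0 to 3 higher promoters at week 6, with 52 positions and 2 higher regions without PyMT replicate 1. It gave 0 to 1 promoters falling with stage and 5 to 8 rising. Same-numbered PyMT and FVB mice showed little shared deviation (correlations of -0.141 to 0.0866 over promoters). The labels do not say what the numbers stand for, and correlations within groups of 2 or 3 mice cannot exclude pairing. With the replicate block, 15 promoters were higher, 7 lower and 6 rising, 1 was higher at week 6, and the Foxn3 and Foxo1 bodies lost their calls (adjusted p = 0.0518 and 0.055).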
